A study of Mus musculus with 6 samples.

Results

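Matrix metalloproteinases (MMPs), the ADAMTS proteases with their ADAMTS-like relatives, and the tissue inhibitors of metalloproteinases (TIMPs) were examined in the renal cortex of mice with ischemia-reperfusion injury. Every gene whose symbol began with Mmp and a digit or with Adamts, and every Timp gene, was taken, which gave 45 of the 19176 genes in the table: 20 Mmp, 17 Adamts, 5 Adamtsl and 3 Timp genes. The animals were wild-type C57BL/6J males aged 8 weeks when obtained, and all of them had the left renal pedicle clamped and the right kidney removed the day before tissue was taken. The UIRI group received vehicle, ethanol in saline, and the UIRI + BA group received bruceine A (BA), a quassinoid of Brucea javanica that the deposited labels spell brucine A, at 1 mg/kg, both injected into the peritoneum once a day up to day 14. Each group held 3 biological replicates with 1 library each, the RNA came from whole cortex with its tubules, vessels, interstitium and infiltrating cells mixed, and kidneys without injury were not analysed here. Values are counts divided by a size factor of the library, called normalised counts.

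MMPs and ADAMTS proteases are zinc enzymes that are made as inactive precursors and cut collagens, proteoglycans, elastin and glycoproteins of the extracellular matrix, along with cytokines and receptors at the cell surface. TIMPs bind the active site of these enzymes and block them, and the balance of protease and inhibitor sets how much matrix is removed. In the fibrotic kidney, tubular cells, myofibroblasts, macrophages and neutrophils each make their own set of MMPs, some of which degrade basement membrane or promote scarring while others clear collagen. ADAMTS-like proteins share the binding domains of the ADAMTS family and lack the protease domain.

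A group of 8 measured Mmp genes lies close together on chromosome 9. Mmp1b, not analysed here, lies among them and shares exon bases with Mmp12 on the opposite strand. The sequences before 4 of the 8 are shown because this group held Mmp7, the member with the largest fold difference outside Adamts17. Most promoters of the group also share the same short motifs. Each line gives the 250 bases before the start site on the + strand of GRCm38.p6 as annotated by RefSeq. Capitals mark an AP-1 motif or a TATA box. Mmp7 and Mmp12 have 2 annotated starts each, and the one shown is that with an AP-1 motif. For Mmp12 this is the downstream start, and the window of its upstream start (chr9:7344147-7344446) holds neither motif. In order, they lie at chr9:7691840-7692089, chr9:7445572-7445821, chr9:7347124-7347373 and chr9:7272264-7272513.
Mmp7: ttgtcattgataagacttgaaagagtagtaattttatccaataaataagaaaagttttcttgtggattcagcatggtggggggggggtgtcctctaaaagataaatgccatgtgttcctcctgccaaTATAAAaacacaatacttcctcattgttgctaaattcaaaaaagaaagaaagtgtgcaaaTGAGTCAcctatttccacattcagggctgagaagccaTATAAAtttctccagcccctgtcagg
Mmp3: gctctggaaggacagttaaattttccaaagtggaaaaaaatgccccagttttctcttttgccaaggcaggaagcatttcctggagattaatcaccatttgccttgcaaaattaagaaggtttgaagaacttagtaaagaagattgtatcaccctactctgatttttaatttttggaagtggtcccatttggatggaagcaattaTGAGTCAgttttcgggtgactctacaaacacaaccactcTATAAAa
Mmp12: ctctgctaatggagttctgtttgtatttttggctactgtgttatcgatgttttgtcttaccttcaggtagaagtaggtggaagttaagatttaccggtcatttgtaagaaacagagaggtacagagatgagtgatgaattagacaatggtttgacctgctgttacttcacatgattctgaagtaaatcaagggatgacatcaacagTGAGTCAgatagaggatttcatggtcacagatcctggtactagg
Mmp13: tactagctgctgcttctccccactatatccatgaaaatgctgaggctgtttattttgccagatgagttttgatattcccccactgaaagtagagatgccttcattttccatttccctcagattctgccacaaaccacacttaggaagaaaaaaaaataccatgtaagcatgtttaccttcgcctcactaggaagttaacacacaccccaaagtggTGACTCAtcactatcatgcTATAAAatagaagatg
AP-1, the Fos and Jun dimer that acts downstream of inflammatory and growth factor signals, was searched as TGANTCA on both strands, and the TATA box as TATAAA on the strand of the gene. With the start base counted as 0, the first base of the AP-1 motif stood at -63 in Mmp7, -46 in Mmp3, -44 in Mmp12 and -35 in Mmp13. A TATA box began at -123 and -26 in Mmp7, at -7 in Mmp3 and at -16 in Mmp13, while in Mmp12 it began 4 bases after the annotated start and is outside the printed bases. No match overlapped another in these 4 sequences. RefSeq windows from 250 bases before to 50 after a start were found for 31 of the 45 members, with 34 windows in all. No window was found for the other members, among them Mmp2, Mmp9 and Adamts16, so their promoters were not searched for any motif.

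The AP-1 motif was present in 6 of these 31 members (19.4%), against 8.97% of the 27025 genes and 7.81% of the 32851 windows of the whole promoter set. All 6, Mmp3, Mmp7, Mmp10, Mmp12, Mmp13 and Mmp20, belong to the chromosome 9 group. A TATA box was found in 8 of 31 (25.8%, against 9.77% of all genes), namely the same 6 genes with Adamts1 and Adamtsl2. TCF/LEF, the nuclear effectors of canonical Wnt signaling, were searched as CTTTGAT or as CTTTGTT on both strands, and 3 members held a match (9.68%, against 10.6% of all genes): Mmp7, Mmp8 and Mmp12, in Mmp12 in the window of the upstream start. In Mmp7 this match began 4 bases after the first annotated start. GC boxes, GGGCGG on both strands, were found in 21 of 31 members (67.7%, against 38.2% of all genes) and in no matched member of the chromosome 9 group. A match describes the letters in the window and was not tested as a binding site.

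UIRI replicate 3 was sequenced 2.04 times as deeply as the median of the others, at 38124164 reads on genes against 16510720 to 20313529. On the first principal component, with 41.8% of the variance, it had a score of 11.1, on the side of the BA libraries (3.11 to 30.5) and away from UIRI replicates 1 and 2 (-32.5 and -25.5). Its label was kept. Transcripts of 41 of the 45 members averaged at least 10 normalised counts over the 6 libraries. Those below were Adamts18, Adamts20, Adamtsl3 and Mmp10, with between 2 and 29 reads per library. Per kilobase of annotated exon, the level in the UIRI group was highest for Timp1 (2089 normalised counts per kilobase), Timp2 (1927) and Adamts1 (1564). In the UIRI + BA group the same 3 genes stood at 1691, 1685 and 1862, with Adamts1 first. Mmp2, Mmp12, Mmp14 and Mmp11 came next, at 889.9, 737, 628 and 565 normalised counts per kilobase in the UIRI group. Mmp7 stood at 379 and Mmp9 at 68.3 on the same scale. The gelatinase Mmp9 was thus far below Mmp2 per kilobase.

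No member passed the adjusted threshold when BA-treated kidneys were compared with UIRI kidneys (limma, 0 of 45, as for 0% of all genes), and the smallest adjusted p among members was 0.225. An unadjusted p below 0.05 was found for 13 members (28.9%, against 10.3% of all genes). Of these, 11 were lower with BA (4.61% of all genes were lower at this threshold) and 2 were higher (5.67% of all genes). The lower ones were Mmp2, Mmp3, Mmp7, Mmp9, Mmp12, Mmp14, Mmp15, Adamts16, Adamts17, Timp1 and Timp2, and the higher ones were Timp3 and Adamtsl2. Across the whole family 34 of 45 members (75.6%) had a lower mean with BA, against 51.1% of all genes, and the median log2 fold change was -0.19, against -0.01 over all genes. The libraries of the groups did not overlap in 11 members (24.4%, against 14.4% of all genes), and in each of them the 3 UIRI + BA libraries lay below the 3 UIRI libraries (6.96% of all genes). With 3 libraries against 3 an exact permutation test cannot go below a two-sided p of 0.1. Groups without overlap always give this value, so for these 11 members the test adds nothing to the lack of overlap. In bulk cortex, fewer cells of a type and less RNA per cell cannot be told apart.

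Tests on counts placed some members differently at the adjusted threshold. DESeq2 on the recovered reads gave an adjusted p to 35 members and called 3 of them, against 1.49% of all genes: Mmp9 (adjusted p = 0.00269), Mmp7 (0.00382) and Adamts16 (0.0231), all lower with BA. edgeR's quasi-likelihood test called 0 of 41 members (0% of all genes) and found 13 at an unadjusted p below 0.05 (9.93% of all genes).

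**Figure D1:**
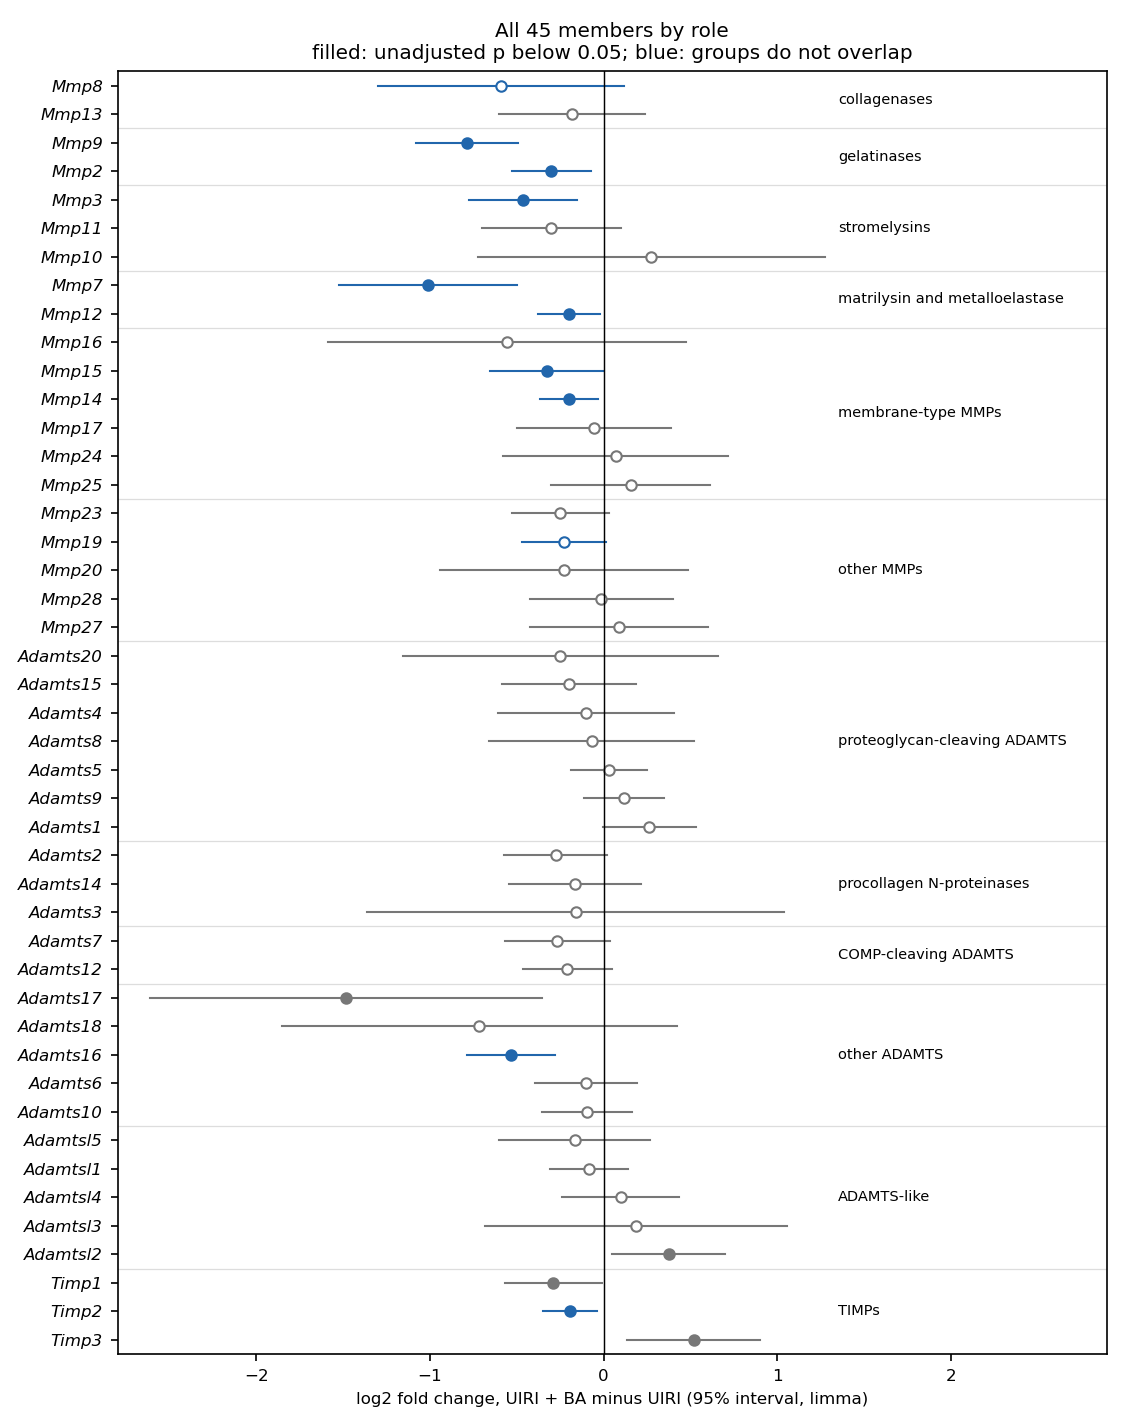
The log2 fold change of all 45 members, UIRI + BA minus UIRI, with its 95% interval from limma, grouped by the role of the protein; filled points had an unadjusted p below 0.05 and blue points had groups that did not overlap. Most points lie left of 0, with Mmp7 at -1.01 and Adamts17 at -1.49 farthest left among the filled points and Timp3 at 0.52 farthest right.

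Both gelatinases, which cut denatured collagen and the type IV collagen of basement membranes, were lower with BA. Mmp9 lies on chromosome 2 (GRCm38 2:164940780-164955850, + strand). It had 263, 238 and 223 normalised counts in UIRI replicates 1, 2 and 3 and 135, 157 and 127 in UIRI + BA replicates 1, 2 and 3. The lowest UIRI library was above the highest BA library, and the means were 242 ± 19.9 (SD, n = 3) and 139.9 ± 15.5 (SD, n = 3). For Mmp9 the log2 fold change was -0.79 (SE 0.13, limma adjusted p = 0.225), from 108 to 408 reads per library, and it was between -0.87 and -0.72 when single libraries were left out. Mmp2, the broadly expressed gelatinase of stromal cells, had 3097, 3336 and 2566 in the UIRI libraries and 2344, 2397 and 2521 in the UIRI + BA libraries. These did not overlap either, although UIRI replicate 3 was only just above the highest BA library, and the log2 fold change was -0.30 (SE 0.10, limma adjusted p = 0.395). It was -0.41 without UIRI replicate 3 and -0.22 without UIRI replicate 2.

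Matrilysin (Mmp7), which is made by injured tubular epithelium and is a target of Wnt signaling, showed the largest fold difference among members with separate groups. Its level was 458, 307 and 448 in the UIRI libraries and 173, 158 and 279 in the UIRI + BA libraries. UIRI replicate 2 and UIRI + BA replicate 3 were nearest to each other, and the groups were apart. The mean ratio of UIRI to UIRI + BA was 1.99, and the log2 fold change was -1.01 (SE 0.23, limma adjusted p = 0.249), between -1.26 and -0.86 with each library left out in turn. Exons of Mmp7 share 11.5% of their bases with AV064505 on the opposite strand, and the strand setting of the read counting is not given in the sources used here. Metalloelastase (Mmp12), a product of macrophages that cuts elastin, was among the most abundant proteases. It had 5606, 5389.9 and 5006 normalised counts with vehicle and 4382, 4683 and 4894 with BA. The difference was small, with a log2 fold change of -0.20 (SE 0.08, limma adjusted p = 0.460), and the groups did not overlap.

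Of the stromelysins, which cut proteoglycans, fibronectin and other MMP precursors, Mmp3 was lower with BA. Mmp3 stood at 479, 429 and 378 in the UIRI libraries and 274, 367 and 292 in the UIRI + BA libraries, again without overlap. Its log2 fold change was -0.46 (SE 0.14, limma adjusted p = 0.349). Mmp11, a furin-activated enzyme of stromal fibroblasts and the most abundant of the 3 per kilobase, had 1797, 1822 and 1088 with vehicle and 1193, 1216 and 1312 with BA. UIRI replicate 3 was the lowest of all 6 libraries for Mmp11, so the groups overlapped. For Mmp11 the log2 fold change was -0.30 (SE 0.18, limma adjusted p = 0.570), and it was -0.55 without UIRI replicate 3 and -0.17 without UIRI replicate 2. Mmp10 was too scarce to compare, with 3 to 14 reads per library and an interval from -0.72 to 1.27.

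Collagenases start the breakdown of fibrillar collagen, and the measured ones, Mmp8 and Mmp13, were present at low levels. Mmp8, which neutrophils store in granules, had 19.3, 18.0 and 18.6 normalised counts in the UIRI libraries and 10.02, 9.69 and 17.7 in the UIRI + BA libraries. The groups did not overlap, UIRI + BA replicate 3 lying close under the UIRI libraries, and the log2 fold change was -0.59 (SE 0.31, limma adjusted p = 0.545) on 8 to 34 reads per library. It was between -0.85 and -0.45 when single libraries were left out. Mmp13, the main interstitial collagenase of the mouse, had 102, 129 and 150.1 with vehicle and 125, 91.5 and 118 with BA. Its libraries were interleaved, and the interval of the log2 fold change ran from -0.60 to 0.24. Mmp1a and Mmp1b were not analysed here.

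Membrane-type MMPs sit at the cell surface and activate other MMPs there. Mmp14, which together with Timp2 activates the precursor of Mmp2, had 4006, 3613 and 3607 in the UIRI libraries and 3346, 3216 and 3189 in the UIRI + BA libraries. Its groups did not overlap, and its log2 fold change was -0.20 (SE 0.07, limma adjusted p = 0.440). Mmp15, a close relative of Mmp14, had 357, 258 and 259 with vehicle and 225, 244 and 218 with BA, with UIRI replicate 1 well above the other 5 libraries. BA against vehicle gave a log2 fold change of Mmp15 of -0.33 (SE 0.14, limma adjusted p = 0.486), and it was -0.17 without UIRI replicate 1 and -0.41 without UIRI replicate 2. The other four, Mmp16, Mmp17, Mmp24 and Mmp25, averaged under 100 normalised counts and none had an unadjusted p below 0.05.

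Among the remaining MMPs, none of 5 had an unadjusted p below 0.05. Mmp23, an enzyme held in the membrane by its signal anchor and the most abundant of these per kilobase, had 902, 859 and 695 normalised counts with vehicle and 600.1, 711 and 751 with BA. UIRI replicate 3 fell inside the BA range, and the log2 fold change was -0.25 (SE 0.12, limma adjusted p = 0.524). Mmp19 had groups that did not overlap, with a log2 fold change of -0.23 (SE 0.11), and 22.3% of its exon bases are shared with Tmem198b on the opposite strand. Mmp20, Mmp27 and Mmp28 had log2 fold changes between -0.23 and 0.09, with intervals that included 0. Mmp21 was not analysed here.

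**Figure D2:**
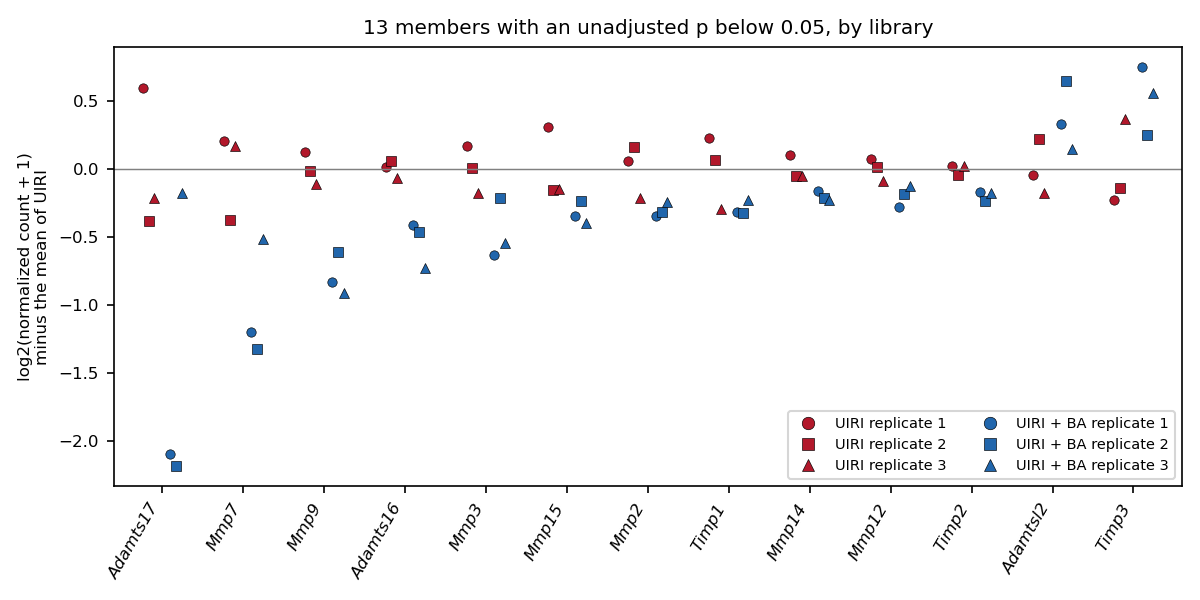
Each point is 1 library, plotted as log2(normalised count + 1) minus the UIRI mean of the gene, for the 13 members with an unadjusted p below 0.05. The UIRI + BA points lie below the UIRI points without overlap for Mmp9, Adamts16, Mmp7, Mmp3, Mmp2, Timp2, Mmp14, Mmp12 and Mmp15, whereas those of Timp3, Adamts17, Adamtsl2 and Timp1 overlap with UIRI.

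Of the ADAMTS proteases, Adamts16 and Adamts17 had an unadjusted p below 0.05, both with lower means under BA. In 14 of 17 Adamts genes the mean was lower with BA, and 2 of 17 (11.8%) had an unadjusted p below 0.05, near the 10.3% of all genes, against 16 of 20 and 7 of 20 (35%) for the Mmp genes. Groups did not overlap in 1 of 17 Adamts genes (5.88%) and in 9 of 20 Mmp genes (45%), against 14.4% of all genes. Adamts16 (GRCm38 13:70727802-70841811, - strand), a protease expressed in kidney and linked to blood pressure in rodents, was the Adamts gene without overlap. Its level was 408, 421 and 386 in the UIRI libraries and 303, 293 and 244 in the UIRI + BA libraries. Spread within the UIRI group was small, and the means were 405 ± 17.8 (SD, n = 3) and 280.1 ± 31.5 (SD, n = 3). The log2 fold change of Adamts16 was -0.53 (SE 0.11, limma adjusted p = 0.225), between -0.59 and -0.44 over the same omissions. Adamts17, which acts on fibrillin microfibrils, had 191, 96.7 and 108 with vehicle and 28.8, 26.9 and 112 with BA. UIRI + BA replicate 3 reached the level of the UIRI libraries, whereas UIRI + BA replicates 1 and 2 were far below them. The log2 fold change of Adamts17 was -1.49 (SE 0.50, limma adjusted p = 0.397). It was -2.14 when UIRI + BA replicate 3 was left out and -1.13 when UIRI + BA replicate 2 was. Krt15, a urothelial keratin, was likewise at 55.5, 48.4 and 217 in the UIRI libraries and 1.25, 5.38 and 152 in the UIRI + BA libraries, high in UIRI + BA replicate 3. It was chosen after its values were seen from 9 urothelial genes, of which 8 had lower means with BA and 1, Krt20, had an unadjusted p below 0.05, in the other direction (log2 fold change 0.41). Their sum, mostly Krt20, ran from 1295 to 1680.2 with vehicle and from 1275 to 1923 with BA, with Upk2 and Upk3a at 0 in some UIRI + BA libraries, and the part of urothelium in the Adamts17 values was not tested.

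Proteoglycan-cleaving ADAMTS proteases showed no member with an unadjusted p below 0.05 among 7. Adamts1, which cuts versican and aggrecan and was the most abundant protease of the whole set per kilobase, had 7398, 7527 and 9957 normalised counts in the UIRI libraries and 10534, 9403 and 9672 in the UIRI + BA libraries. UIRI replicates 1 and 2 were lower than every BA library, and UIRI replicate 3 lay among the BA libraries. Adamts1 had a log2 fold change of 0.26 (SE 0.12, limma adjusted p = 0.495), which was 0.40 without UIRI replicate 3 and 0.19 without UIRI replicate 1. Adamts5, the main aggrecanase of mouse cartilage, gave an interval from -0.19 to 0.25 around a log2 fold change of 0.03. Adamts4, Adamts8, Adamts9, Adamts15 and Adamts20 had log2 fold changes between -0.25 and 0.12.

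Procollagen N-proteinases, which remove the amino-terminal propeptide before collagen fibrils form, had lower means with BA in 3 of 3 genes. Adamts2, the most abundant of them, had 1534, 1292 and 1602 with vehicle and 1132, 1072 and 1471 with BA, UIRI + BA replicate 3 lying inside the UIRI range. Its log2 fold change was -0.28 (SE 0.13, limma adjusted p = 0.510). The proteases that cut cartilage oligomeric matrix protein, Adamts7 and Adamts12, had log2 fold changes of -0.27 (SE 0.13) and -0.21 (SE 0.11). Adamts7 had 379.5, 433 and 341 with vehicle and 271, 349 and 341 with BA, and the groups overlapped. Adamts10, a partner of fibrillin microfibrils and the most abundant of the remaining Adamts genes, had 3012, 3229 and 2496 with vehicle and 2457, 3029 and 2672 with BA. Its groups were interleaved, and the interval of the log2 fold change was -0.35 to 0.16. Adamts13 and Adamts19 were not analysed here.

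Of the 5 ADAMTS-like genes, Adamtsl2 had an unadjusted p below 0.05 and a higher mean with BA. Adamtsl2, a matrix protein that binds fibrillin and a latent TGF-β binding protein, had 796, 958 and 725 normalised counts in the UIRI libraries and 1034, 1287 and 907 in the UIRI + BA libraries. UIRI replicate 2 exceeded UIRI + BA replicate 3, so the groups overlapped, and the log2 fold change was 0.37 (SE 0.14, limma adjusted p = 0.448), or 0.24 without UIRI + BA replicate 2. The other ADAMTS-like genes had log2 fold changes between -0.17 and 0.19.

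The TIMPs differed in direction, Timp1 and Timp2 having lower means with BA and Timp3 a higher one. Timp1, the TIMP induced by inflammation and injury, had 2151, 1919 and 1495 normalised counts in the UIRI libraries and 1476, 1462 and 1566 in the UIRI + BA libraries. UIRI replicate 3 lay within the BA range, and the log2 fold change was -0.29 (SE 0.12, limma adjusted p = 0.483). Without UIRI replicate 3 it was -0.44, and without UIRI replicate 1 it was -0.17. Timp2, which inhibits Mmp2 and at low amounts helps Mmp14 to activate it, had 7627, 7263 and 7632 in the UIRI libraries and 6667, 6384 and 6638 in the UIRI + BA libraries. The libraries of each group lay close together and the groups did not overlap, with a log2 fold change of -0.19 (SE 0.07, limma adjusted p = 0.431). Timp3 (GRCm38 10:86300372-86349506, + strand), the TIMP that is bound to matrix and also inhibits ADAMTS and ADAM proteases, had 2364, 2517 and 3578 with vehicle and 4660.2, 3299 and 4072 with BA. UIRI replicate 3 exceeded UIRI + BA replicate 2, and the other UIRI libraries were below every BA library. Timp3 had a log2 fold change of 0.52 (SE 0.17, limma adjusted p = 0.385), between 0.40 and 0.70 with each library left out in turn. Syn3, on the opposite strand, shares 21.3% of the exon bases of Timp3. Timp4 was not analysed here.

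Summed per kilobase of exon, the 20 Mmp genes gave 4430, 4206 and 3698 normalised counts in the UIRI libraries and 3128, 3271 and 3439 in the UIRI + BA libraries, which do not overlap. The 17 Adamts genes gave 2585, 2618 and 3086 in the UIRI libraries and 2998, 2905 and 2960.3 in the UIRI + BA libraries, a sum that Adamts1 dominates. The 3 Timp genes gave 4671, 4334 and 4082 in the UIRI libraries and 3945, 3691 and 3967 in the UIRI + BA libraries. Timp1 and Timp2 dominate this sum. Timp3, which went the other way, gave a mean of only 346 with vehicle and 492 with BA. Ratios to the TIMP sum thus mainly describe Timp1 and Timp2, and a ratio to Timp3 alone was not computed. In the ratio of the MMP sum to the TIMP sum, UIRI libraries had 0.949, 0.970 and 0.906 and UIRI + BA libraries had 0.793, 0.886 and 0.867. In the ratio of the ADAMTS sum to the TIMP sum, UIRI libraries had 0.553, 0.604 and 0.756 and UIRI + BA libraries had 0.760, 0.787 and 0.746. Every UIRI library was above every BA library for the MMP sum, the TIMP sum and the MMP to TIMP ratio, while the ADAMTS sum and the ADAMTS to TIMP ratio overlapped and the mean of both was higher with BA. These sums describe transcripts, with no test.

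**Figure D3:**
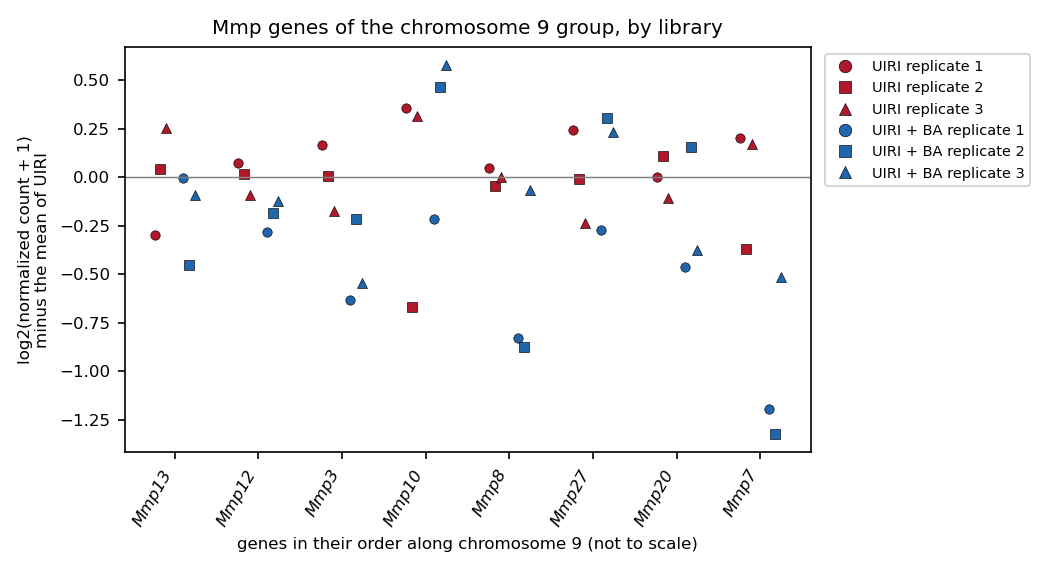
Each point is 1 library, plotted as log2(normalised count + 1) minus the UIRI mean, for the 8 measured Mmp genes of chromosome 9 in their order along the chromosome. BA points lie below UIRI points without overlap for Mmp12, Mmp3, Mmp8 and Mmp7, of which Mmp8 rests on 8 to 34 reads per library. Points of Mmp10, Mmp27 and Mmp20 scatter around 0.

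The chromosome 9 group spans 427072 bases (GRCm38 9:7272514-7699585), in the order Mmp13, Mmp12, Mmp3, Mmp10, Mmp8, Mmp27, Mmp20 and Mmp7, with 0 other genes of the table inside it. Of its 8 members, 6 had a lower mean with BA, 3 had an unadjusted p below 0.05 (10.3% of all genes), and 4 had groups that did not overlap (14.4% of all genes), while 10 of the 37 members elsewhere had an unadjusted p below 0.05. The 3 were Mmp7, Mmp12 and Mmp3, whose RefSeq windows hold both the AP-1 motif and a TATA box, that of Mmp12 after the annotated start. Mmp13, Mmp10 and Mmp20 hold the same motifs in their windows and had log2 fold changes of -0.18, 0.28 and -0.23 with intervals that included 0. Mmp7 and Mmp8 of this group, and Mmp9 on chromosome 2, were the members with separate groups and a log2 fold change below -0.58. For Mmp8 the interval ran from -1.30 to 0.12 and so included 0. Its separation rested on 18.0 normalised counts (16 reads) in UIRI replicate 2 against 17.7 (17 reads) in UIRI + BA replicate 3.

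Leaving out single libraries changed how many members had an unadjusted p below 0.05. There were 4 without UIRI replicate 1 (4.21% of all genes), 7 without UIRI + BA replicate 1 (6.62% of all genes) and 6 without UIRI + BA replicate 2 (9.70% of all genes). There were 16 without UIRI replicate 3 (25.2% of all genes), and 7 of 45 members then passed the adjusted threshold of limma, against 5.02% of all genes. These were Mmp2, Mmp9, Mmp11, Adamts16 and Timp1, which were lower with BA, and Adamts1 and Timp3, which were higher. Without that library 34 of 45 members had a lower mean and the median log2 fold change was -0.18. Mmp9, Mmp7, Mmp3 and Adamts16 kept an unadjusted p below 0.05 in each of the 6 fits that left out 1 library. Mmp2 and Timp3 did so in 4 of the 6, and Mmp14, Timp2 and Adamts17 in 3. Mmp12, Mmp15 and Adamtsl2 did so in 2, and Timp1 in 1.

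**Figure D4:**
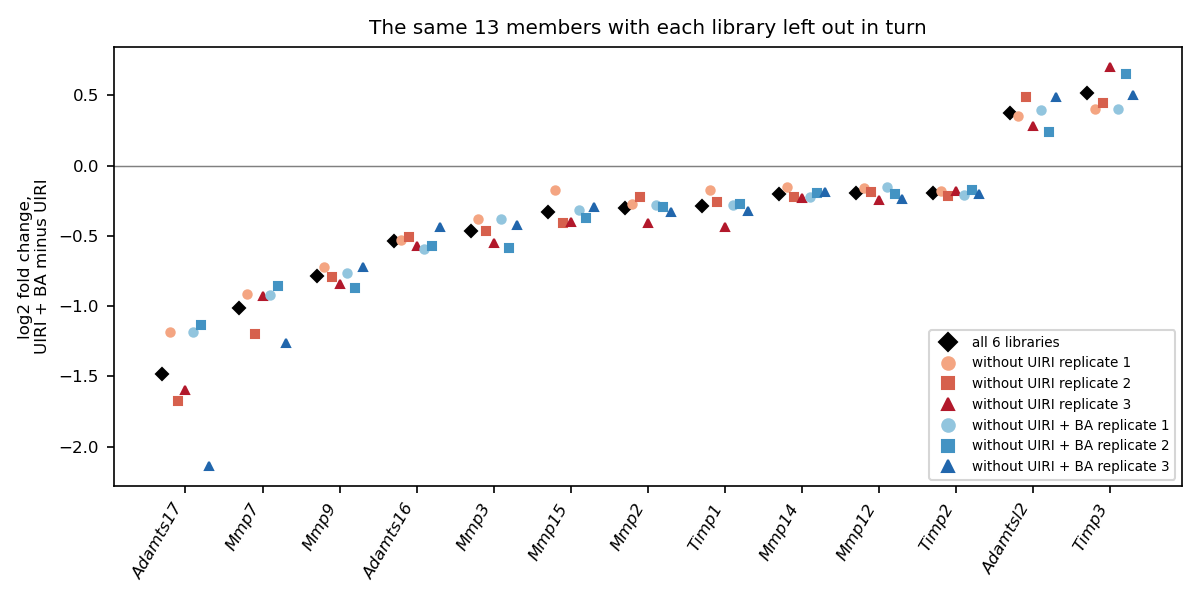
The log2 fold change, UIRI + BA minus UIRI, of the 13 members with an unadjusted p below 0.05, with all 6 libraries and with each library left out in turn. No point crosses 0, and the widest span is that of Adamts17, from -2.14 to -1.13.

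Genes that control these proteases were followed in 19 of 20 listed regulators, of which 15 had a lower mean with BA and 2 (10.5%) had an unadjusted p below 0.05, a share near the 10.3% of all genes. Reck, a membrane-anchored inhibitor of Mmp2, Mmp9 and Mmp14, had 509.8, 519 and 493 normalised counts in the UIRI libraries and 362, 378 and 423 in the UIRI + BA libraries. Its groups did not overlap, with a log2 fold change of -0.39 (SE 0.09, limma adjusted p = 0.263). The other was Spock3, a proteoglycan of the testican family, at 82.7, 38.2 and 64.1 with vehicle and 7.52, 14.0 and 33.4 with BA. Other metalloproteinases, 15 of 16 listed, had 4 at this threshold (26.7%, against 10.3% of all genes), namely Bmp1, Adam12, Adam28 and Mep1a. Bmp1, the procollagen C-proteinase, had a log2 fold change of -0.33 (SE 0.10), and Adam12, a protease of mesenchymal cells, had -0.37 (SE 0.16). Adam28 had -1.58 (SE 0.49) on few reads. Mep1a, a meprin of the proximal tubule brush border, was higher with BA at 0.58 (SE 0.17).

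Substrates of the MMP and ADAMTS families had a lower mean with BA in 14 of 14 measured genes of 16 listed (51.1% of all genes). Of them 8 (57.1%, against 10.3% of all genes) had an unadjusted p below 0.05, with no adjusted p below the threshold (limma). The 8 include Vwf, whose listed protease is not among the members. Col3a1, type III collagen, had 46022, 34494 and 39081 normalised counts in the UIRI libraries and 22478, 24888 and 34434 in the UIRI + BA libraries, without overlap. Col1a1 and Col1a2, the chains of type I collagen, had log2 fold changes of -0.32 (SE 0.08) and -0.32 (SE 0.10), and Fn1, fibronectin, had -0.32 (SE 0.11). Vcan, the versican that Adamts1 and Adamts5 cut, had -0.46 (SE 0.14), and Vwf, cut by Adamts13 (not analysed here), had -0.59 (SE 0.20). Eln and Fbn1, elastin and fibrillin of the microfibrils, had -0.36 (SE 0.12) and -0.30 (SE 0.09). Col4a1 and Col4a2, chains of type IV collagen, count among the lower ones with only -0.03 (SE 0.09) and -0.03 (SE 0.07). Their intervals included 0. Counted by gene, proteases and the listed substrates were thus both mostly lower with BA at the transcript level. The summed ADAMTS level overlapped between the groups and had a higher mean with BA.

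Markers of the cell types that make these proteases were read beside them. Summed normalised counts of 9 fibroblast and myofibroblast markers ran from 94412 to 113276 in the UIRI libraries and from 69839.8 to 92157 in the UIRI + BA libraries, with 9 of 9 lower (51.1% of all genes) and 5 at an unadjusted p below 0.05 (10.3% of all genes). Col1a1, Col1a2 and Col3a1 are in this list and among the substrates, and all of them are among the markers at that threshold. They also make up most of the sum, with 17083, 26503 and 46022 of the 113276 in UIRI replicate 1. The separation of this sum thus mainly describes these collagens, and a sum without them was not computed. The 8 macrophage markers ran from 34449.5 to 47720.3 and from 32727 to 36618, with 8 of 8 lower and 2 at that threshold. Of the 8 neutrophil markers 4 were measured, summing to between 1249 and 1739 with vehicle and between 1035 and 1164 with BA, all 4 lower and 3 at that threshold, while Mpo, Elane, Ly6g and Retnlg were not analysed here. The 8 proximal tubule markers ran from 15652 to 23638 and from 25181 to 30592, with 8 of 8 higher and 7 at that threshold. Of the 8 injured tubule markers 5 were higher and 3 lower with BA, and 5 were at that threshold, 3 of them higher and 2 lower. Their sum ran from 403425 to 418863 with vehicle and from 414287 to 483593 with BA. Among them Lcn2 was lower at -0.51 (SE 0.09) and Havcr1 was higher at 0.42 (SE 0.10). The 7 endothelial markers, from 8258 to 8645 with vehicle and from 7967 to 8443 with BA, had 0 at that threshold. The part of these cell types in the lower values of Mmp2, Mmp7, Mmp8, Mmp9, Mmp12, Mmp14 and Timp1, and in the higher values of Timp3, was not tested.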

How the data were processed

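Poly(A) RNA of renal cortex was sequenced in 3 UIRI and 3 UIRI + BA libraries. Groups and replicate numbers were read from the labels. According to the methods, the authors enriched mRNA with oligo(dT), filtered paired-end reads, aligned them with HISAT2 and counted them on genes with FeatureCounts. The reference build, the annotation and the strand setting are not given in the sources used here.

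The expression table that the authors deposited gives a signal for each gene in each library, namely the count scaled by the size factor of the library. In all 6 libraries 100% of the values were whole multiples of the value of 1 read (tolerance 0.001), so whole reads were recovered for the count tests. The same table holds 4 columns of the authors' own comparison (log2 fold change, test statistic, p-value and adjusted p-value), and further deposited tables hold their Gene Ontology and KEGG enrichment. None of these was used. No column of values per library went unused, and 0 rows lacked a gene name.

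limma 3.58.1 (R 4.3.3) was fitted to log2(value + 1), a pseudocount of 1, over all 19176 rows, with a mean-variance trend and no covariate. p-values were adjusted by Benjamini and Hochberg over all rows, and 0.05 was the threshold. Fold changes are on this log2 scale, which understates those of scarce genes. DESeq2 1.42.0 and edgeR 4.0.16 (quasi-likelihood, TMM) served as alternatives on the recovered reads, and scipy 1.17.1 gave exact two-sided permutation tests. The fits were tested on simulated data. Other alternatives were upper quartile scaling, quantile normalization, a pseudocount of 0.1, filters on low values, a replicate block and each library left out in turn.

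Positions and exon lengths came from GENCODE M21 (GRCm38), in which all 45 members were found by symbol. The symbol alone ties a position to a measured gene. Promoters came from RefSeq (GRCm38.p6).

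The members and all gene lists were chosen with earlier results of these data known. Named members were every Timp gene, every member with an unadjusted p below 0.05, the member with the highest level per kilobase of each role, and members without overlap whose log2 fold change was at least 0.58 in size. Other members, such as Mmp19, Mmp10, Adamts5 and Adamts12, do not meet the rule and were picked with their values known, to complete the account of their role. Of the regulators, other metalloproteinases and substrates, genes with an unadjusted p below 0.05 were named. Col4a1 and Col4a2 were added after their values were seen. The marker lists are given by counts and sums, except those of podocyte, thick limb and collecting duct genes. Each of those lists had 0 genes with an unadjusted p below 0.05. Krt15, Krt20, Lcn2 and Havcr1 were named after their values were seen.

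Between 16510720 and 38124164 reads per library fell on genes. With 3 libraries a group, the number of animals limits the precision of abundant members, and counting error adds to it for members with few reads.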

Additional observations from a re-analysis of the deposited data

How the results depend on the processing

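The median log2 fold change of the members (-0.19) stayed within the spread between replicates under every alternative run. The number of members with an unadjusted p below 0.05 (13) was between 4 and 16 when single libraries were left out, 11 with DESeq2, 13 with edgeR, 14 after upper quartile scaling and 12 in a fit over genes with a mean of at least 10. The number with an adjusted p below 0.05 was 0 with limma, 3 with DESeq2, and between 0 and 7 when single libraries were left out, the highest without UIRI replicate 3. The cause was not tested. For the 21 named members, 283 of 293 alternative values kept their direction and side of the adjusted threshold, 10 passed it and 0 were reversed. DESeq2 gave 1 of the 21, Mmp8, no adjusted p. Keeping the side says little about stability, because none of the 21 passed in the main fit. In most of the alternatives no gene of the whole table passed either.

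Same-numbered libraries deviated from their group means with correlations of -0.24, 0.30 and 0.15 over 17249 genes. Not every library correlated best with its own number. The labels do not say whether a number marks a shared litter or day, and with 3 libraries a group these correlations cannot decide it. With a replicate block 12 members had an unadjusted p below 0.05 and 0 an adjusted one, with a smallest adjusted p of 0.0649 (limma), and 6 of all genes passed the adjusted threshold against 0 without it.

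Depth limits the comparison of Mmp10, Adamts18, Adamts20 and Adamtsl3, for which 1 library held as few as 2 to 5 reads. The design has 3 animals in each group, no kidneys without injury among the libraries used, and measures transcripts and not enzyme activity.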
